A study of Mus musculus with 2 samples.

Results

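Collagen genes were taken as every gene of the deposited matrices whose symbol is Col, digits, a, digits, such as Col1a1, which gave 44 of 32285 genes. Their RNA was counted in barcodes (droplets) with at least 10000 UMIs, at most 1 UMI of Ptprc (the gene of CD45) and at least 10 UMIs of Sparc and Dcn together. A UMI, or unique molecular identifier, marks 1 captured RNA molecule. This rule selected 61 of 4975 barcodes with at least 1000 UMIs in the Control library and 81 of 3507 in the IR library, called Sparc/Dcn-high barcodes here. The others numbered 4914 and 3426. The rule fixed the levels of Sparc, Dcn and Ptprc, so these are not results. No collagen entered it, but Col3a1 RNA varied with that of Sparc and Dcn, as given below.

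Both libraries were made by droplet single-cell RNA-seq from pooled MC38 tumors (a mouse colon carcinoma line) of mice labelled WT, a name that the study also gives to its Ythdf2 fl/fl mice. The Control tumors were not irradiated, and the IR tumors were collected 4 days after a single local dose of 20 Gy. Cells were sorted for CD45, although the labels give a narrower type, CD45+CD11b+Ly6Chi. Each group was 1 library of pooled animals, so no difference below has a replicate check or a p-value, and the intervals cover counting error only.

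Collagens are triple-helical proteins of the extracellular matrix. Fibrillar collagens such as types I, III and V build tensile fibers, type IV builds the sheet of basement membranes, and type VI forms beaded filaments near cells. Chains are made in the endoplasmic reticulum with dedicated hydroxylases and the chaperone Serpinh1, trimmed after secretion and cross-linked by lysyl oxidases. Fibroblasts are their main source in most tumors, and immune cells make little.

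The upstream DNA of 3 members, each of a different collagen type, is shown because their levels were lower in IR than in Control. The sequences are the 250 bases before the RefSeq start on GRCm38.p6, 5′ to 3′ on the strand of the gene. Capitals mark matches, on either strand, to CCAAT (the box of that name), to TATAAA (the core promoter element), to TGANTCA (letters of an AP-1 site) or to CAGAC (letters of a SMAD box), and none of these contains another. The Col3a1 window is chr1:45311288-45311537 on the plus strand. That of Col6a3 is chr1:90843972-90844221 on the minus strand, and that of Col5a1 is chr2:27886175-27886424 on the plus strand.
Col3a1: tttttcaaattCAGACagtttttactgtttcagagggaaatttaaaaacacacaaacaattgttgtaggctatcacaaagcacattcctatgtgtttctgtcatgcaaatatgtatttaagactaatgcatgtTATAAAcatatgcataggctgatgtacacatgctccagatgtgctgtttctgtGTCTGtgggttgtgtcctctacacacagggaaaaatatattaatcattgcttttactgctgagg
Col6a3: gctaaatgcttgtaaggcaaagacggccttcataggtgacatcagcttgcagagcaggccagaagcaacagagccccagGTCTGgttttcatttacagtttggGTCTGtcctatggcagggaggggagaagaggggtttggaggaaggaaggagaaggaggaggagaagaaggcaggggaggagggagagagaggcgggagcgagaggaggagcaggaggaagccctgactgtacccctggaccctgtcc
Col5a1: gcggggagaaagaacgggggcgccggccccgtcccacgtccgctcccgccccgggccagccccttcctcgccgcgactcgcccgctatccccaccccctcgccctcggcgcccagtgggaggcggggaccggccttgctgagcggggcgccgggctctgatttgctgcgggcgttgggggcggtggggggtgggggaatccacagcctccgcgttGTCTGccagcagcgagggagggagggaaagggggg
Of the 44 members, 35 had an entry in the RefSeq promoter table, with 38 windows in all. The share of these windows holding each set of letters was close to that of all 32851 windows: 34.2% against 33.8% for CCAAT, 13.2% against 12.4% for TATAAA, 2.63% against 6.75% for TGANTCA and 44.7% against 42.2% for CAGAC. A match is a run of letters and not a bound site.

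The Control library held 48593879 UMIs and the IR library 42406461. The Sparc/Dcn-high barcodes held 1835221 and 3329101 of them, with a median of 28038 and 36333 per barcode. No Sparc/Dcn-high barcode sequence occurred in both libraries, and 7 did among all barcodes with at least 1000 UMIs. No library could be left out, since each stood alone in its group.

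The stromal name of these barcodes was only partly borne out by a list of 10 fibroblast markers. Lum, Fap and Mfap5 had 0 UMIs in both libraries and Thy1 had 0 in Control and 1 in IR. Twist1 (182 and 374 UMIs), Prrx1 (202 and 382), Pdgfrb (72 and 109) and Fbln1 (69 and 102) were present. The summed list stood at 304 CPM in Control and 310 in IR, where CPM is UMIs per 1000000 UMIs of the summed barcodes. Single barcodes ranged from 59.9 to 1256 CPM in Control and from 47.6 to 1243 in IR. The epithelial or carcinoma list, with Epcam at 0, held 5 and 3 UMIs, the endothelial list 17 and 34, and the adipocyte list 0 in both. Krt14, a keratin not on the first of these lists, stood at 423 CPM in Control and 333 in IR. Whether these barcodes held tumor cells was not tested. The pericyte or smooth muscle list held 181 and 211 UMIs, of which Cspg4 gave 152 and 167. The Schwann or nerve list held 49 and 41, of which Ncam1 gave 45 and 35. Apart from Sparc, Dcn and collagens, the genes that most set these barcodes apart were named after their values were seen. In order they were Bgn, Tm4sf1, Serpinh1, Ly6c1, Pcolce, Tubb3, Ccn1, Fstl1, Mmp2, Cald1, Htra1, Sox9, Cd34, Cavin3 and Krt14. No cell type name is given to the barcodes for these reasons.

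RNA of genes listed as pan-immune was also present in these barcodes, mostly from Cd74. A list of 8 pan-immune genes summed to 517 CPM in Control and 406 in IR, against 25676 and 22499 in the barcodes with under 10 UMIs of Sparc and Dcn. Cd74 held 758 of the 949 Control UMIs of the list and 1196 of the 1352 IR ones. The next gene, Lyz2, held 71 and 57. How much of this RNA came from immune cells was not tested. The range of the list over single barcodes was 0 to 5940 CPM in Control and 0 to 3979 in IR. Doublets (droplets with more than 1 cell) were not called. With barcodes of more than 5 UMIs of this list left out, the log2 ratio of all collagens was -0.57, against -0.50 with them. That step kept 840082 of 1835221 Control UMIs and about 1541340 of 3329101 IR UMIs. Since most UMIs of the list were Cd74, it sorted barcodes largely by that gene. The part of doublets in the collagen difference was not tested.

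Collagen transcripts were abundant in the Sparc/Dcn-high barcodes of both libraries and lower in IR. All members together stood at 3943 CPM in Control (95% exact Poisson interval 3853 to 4035) and 2795 CPM in IR (2738 to 2852). The log2 ratio of IR over Control was -0.50 (exact conditional interval -0.54 to -0.45), or 0.709-fold. Col3a1, the single chain of type III collagen, made up 46.2% of the collagen UMIs in Control and 42.8% in IR. Without it the log2 ratio was -0.41 (-0.47 to -0.35), with 2121 CPM in Control and 1600 in IR.

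Of the 44 members, 16 had at least 20 UMIs over both libraries, 11 had 1 to 19, and 17 had none in these barcodes. Of the 16, 8 had a ratio whose interval lay below 0 and none had one above 0, while 8 had an interval that included 0. Over all 10082 genes with at least 20 UMIs, the interval lay below 0 for 11.9% and above 0 for 9.94%. None of the 16 was 2-fold higher or 2-fold lower in IR, against 3.20% and 1.81% of all genes. The median log2 ratio was -0.39 over the 16 and -0.03 over all genes. The member differences were thus modest in size and mostly in one direction.

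**Figure D1:**
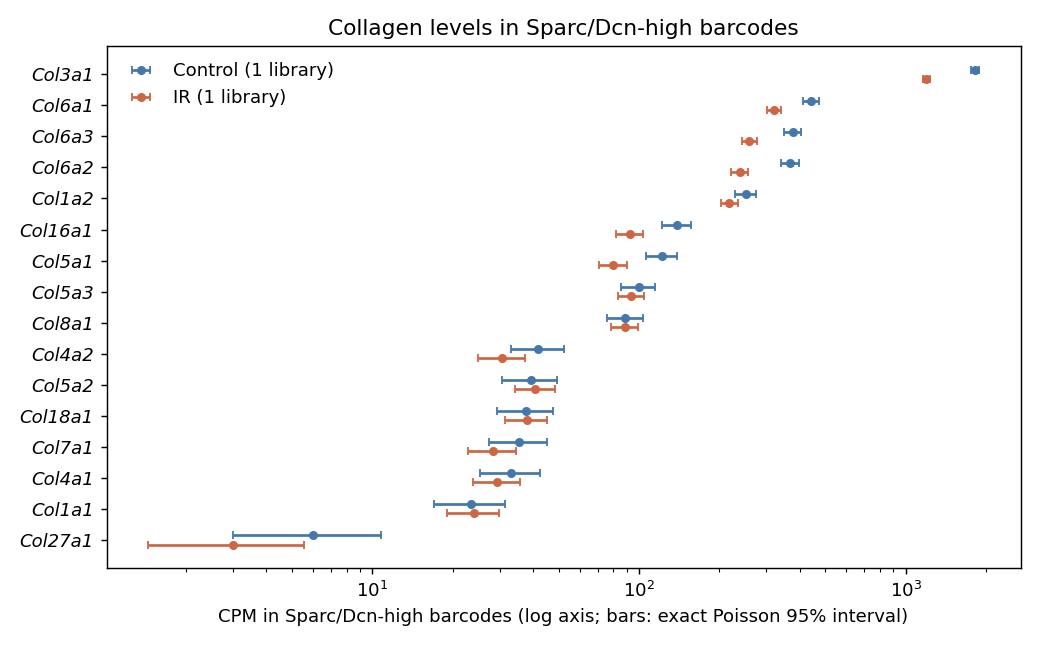
Level of each collagen gene with at least 20 UMIs in the Sparc/Dcn-high barcodes, in CPM on a log axis, with Control in blue and IR in orange. Bars are exact Poisson 95% intervals for 1 library each. Col3a1 leads at 1822 CPM in Control and 1195 in IR, and Col27a1 is lowest at 5.99 and 3.004.

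Among the fibrillar collagens, Col3a1 stood at 1822 CPM in Control (1760 to 1884) and 1195 in IR (1158 to 1233), a log2 ratio of -0.61 (-0.67 to -0.54). Over single barcodes its lowest, median and highest levels were 19.9, 764 and 19446 CPM in Control and 0, 326 and 19149 in IR. The medians thus differed more than the sums, and the ranges overlapped almost wholly. In IR a single barcode held 595 Col3a1 UMIs, 14.95% of the total, and in Control the richest held 10.5%.

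Type I collagen is a heteromer of Col1a1 and Col1a2 chains, and it is the usual product of fibroblasts. Col1a2 stood at 252 CPM in Control and 218 in IR, a log2 ratio of -0.21 (-0.37 to -0.03). Its partner Col1a1 was sparse, at 23.43 and 24.03 CPM, a log2 ratio of 0.04 (-0.52 to 0.61). With barcodes of at least 5000 UMIs admitted, the Col1a1 ratio was -0.70 (-1.18 to -0.23). All Col1a1 UMIs that this step added in Control, 31, came from a single barcode of 6010 UMIs. There were 0.0931 Col1a1 UMIs per Col1a2 UMI in Control (0.0664 to 0.127) and 0.110 in IR (0.0862 to 0.139). Each UMI counts 1 transcript by its 3′ end, so these ratios need no division by length. The 43 Control UMIs of Col1a1 lay in 12 barcodes and the 80 IR UMIs in 18, and the richest barcode held 34.9% and 23.8% of them. Col1a1 RNA thus lay in a few barcodes, and its Spearman correlation with Col1a2 after thinning was 0.26 over 61 Control and 0.19 over 81 IR barcodes. In barcodes with under 10 UMIs of Sparc and Dcn, which had a median of 6784 UMIs in Control and 7847 in IR, 13 of 4887 and 12 of 3416 held a Col1a1 UMI.

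The chains of type V collagen, which regulates fibril diameter, differed from each other. Col5a1 stood at 122 CPM in Control and 80.2 in IR, a log2 ratio of -0.61 (-0.87 to -0.34). Col5a3 stood at 99.7 and 93.1 CPM, a log2 ratio of -0.10 (-0.37 to 0.17), which became 0.52 (0.08 to 0.99) without barcodes of more than 5 pan-immune UMIs. Col5a2 stood at 39.2 and 40.9 CPM, a log2 ratio of 0.06 (-0.36 to 0.49). Only the first of the 3 had an interval below 0. Col5a2 is the neighbor of Col3a1 on chromosome 1, with 24614 bases between the 2 genes, and the UMIs of Col3a1 per UMI of Col5a2 were 46.4 in Control (36.8 to 59.5) and 29.3 in IR (24.7 to 35.0). The intervals of this ratio did not overlap. The last fibrillar member with enough UMIs, Col27a1, held 11 UMIs in Control and 10 in IR, and its log2 ratio of -0.997 had an interval of -2.39 to 0.38.

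Type VI collagen was the most abundant set after Col3a1. Col6a1 stood at 442 CPM in Control and 321 in IR (log2 ratio -0.46, -0.59 to -0.33). For Col6a3 the levels were 378 and 260 CPM (-0.54, -0.69 to -0.40). For Col6a2 they were 369 and 239 CPM (-0.63, -0.78 to -0.48). All 3 chains of the heterotrimer were lower in IR by similar amounts, with overlapping intervals, and the chains stayed near 1 to 1: Col6a1 held 1.20 UMIs per UMI of Col6a2 in Control and 1.35 in IR. Across single barcodes thinned to 10000 UMIs, Col6a1 and Col6a2 had a Spearman correlation of 0.72 in 61 Control and 0.65 in 81 IR barcodes. For Col6a1 and Col6a3 it was 0.40 and 0.13, so the third chain varied less closely with the first. For Col3a1 and Col6a1 it was 0.75 and 0.83. These barcodes share a library, so the correlations are descriptions only.

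Basement membrane collagen was low. Col4a2 stood at 42.0 CPM in Control and 30.6 in IR (log2 ratio -0.45, -0.90 to -0.01), and Col4a1 at 33.2 and 29.4 CPM (-0.18, -0.65 to 0.31). These genes lie head to head on chromosome 8 and their annotated starts overlap by 22 bases (GENCODE, GRCm38). Both are needed for the common type IV heterotrimer, and they held 0.792 and 0.961 Col4a1 UMIs per Col4a2 UMI. In the Sparc/Dcn-high barcodes neither interval of that ratio excluded 1, at 0.557 to 1.12 and 0.721 to 1.28.

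Of the remaining members, Col16a1, a fibril-associated collagen, was lower in IR at 92.2 against 138 CPM (log2 ratio -0.59, -0.83 to -0.34). Col8a1, a short-chain network collagen, differed little, at 88.8 CPM in Control and 88.3 in IR (-0.01, -0.29 to 0.28). Col18a1, the source of endostatin, stood at 37.6 and 37.8 CPM (0.01, -0.43 to 0.45). Col7a1, which forms anchoring fibrils under epithelia, stood at 35.4 and 28.2 CPM (-0.33, -0.80 to 0.15). The 11 members with 1 to 19 UMIs included Col9a3, Col4a5 and Col17a1, and none of them reached 5 CPM in either library. No UMI was found for Col2a1, Col10a1 or Col11a1, chains of cartilage, nor for Col15a1. Finding 0 of 1835221 Control UMIs allows up to 1.63 CPM, and 0 of 3329101 IR UMIs up to 0.901 CPM.

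**Figure D2:**
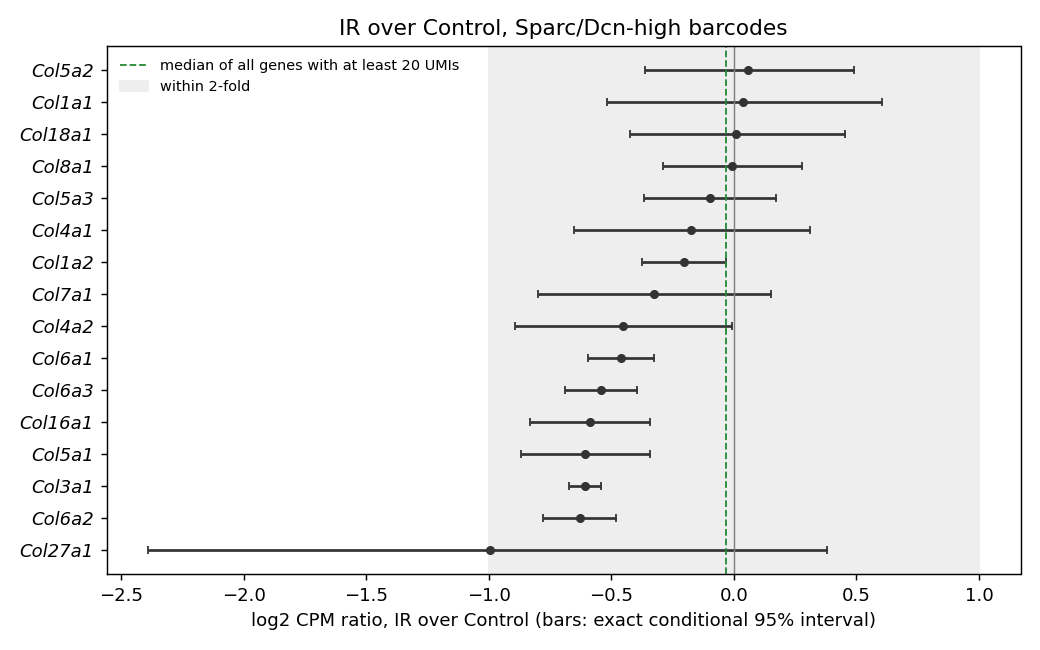
Log2 CPM ratio of IR over Control for the 16 members in the Sparc/Dcn-high barcodes, with exact conditional 95% intervals, the 2-fold range in grey and the median of all 10082 genes, -0.03, as a dashed line. Col6a2 at -0.63 and Col3a1 at -0.61 lie left of the line, while Col5a2, Col1a1, Col18a1 and Col8a1 lie within 0.06 of 0.

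Collagen was unevenly spread over the Sparc/Dcn-high barcodes. Collagen UMIs made up from 0.0656% to 2.51% of a barcode's UMIs in Control, with a median of 0.268%, and from 0.0319% to 2.46% in IR, with a median of 0.168%. Every barcode held at least 1 collagen UMI. A collagen share under 0.1% was found in 7 Control and 22 IR barcodes. The richest barcode held 6.27% of all collagen UMIs in Control and 8.22% in IR. Shallower barcodes were richer: the Spearman correlation of collagen UMIs, after thinning, with the UMIs of the barcode was -0.53 over 61 Control barcodes and -0.30 over 81 IR barcodes. For collagen and cycling UMIs it was -0.31 and -0.29.

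Clustering the 142 barcodes without collagens, Sparc, Dcn or Ptprc gave 4 subclusters. They are numbered here and not named. Subcluster 1 (32 Control and 27 IR barcodes) had no leading gene shared across it: 127 of 128 Control UMIs of Ccl17, the first by fold, and 54 of 55 of Ccr7 lay in 1 barcode, and its IR barcodes held 0 and 1. Its pan-immune list stood at 553 and 253 CPM. Subcluster 2 (15 and 11) was led by Lbp, Ddit4, Ramp2, Gsn and Aspn, the last a small proteoglycan that binds collagen. Subcluster 3 (11 and 20) was led by genes of mitosis such as Ube2c, Cenpf and Ccnb1. Subcluster 4 (3 and 23) was led by interferon-induced genes such as Ifit3, Rsad2 and Cxcl10. Subcluster 2 thus made up 24.6% of the Control and 13.6% of the IR barcodes, and subcluster 4 made up 4.92% and 28.4%.

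Subcluster 2 was the richest in collagen in both libraries, at 10786 CPM in Control and 9356 in IR. It held 3326 of the 7236 Control collagen UMIs and 2502 of the 9304 IR ones. Subcluster 1 stood at 2070 and 1524 CPM, subcluster 3 at 2718 and 1797, and subcluster 4 at 8250 and 3531. The level was lower in IR within each, with log2 ratios of -0.44 (-0.54 to -0.35), -0.21 (-0.28 to -0.13), -0.60 (-0.70 to -0.49) and -1.22 (-1.35 to -1.10). Subcluster 4 in Control was 3 barcodes. A lower sum can come from fewer collagen-rich barcodes or from less collagen RNA in each, and both moved here. With subcluster 2 left out, the log2 ratio of all members was -0.20, that of Col3a1 -0.05 and that of Col6a1 -0.14. The part of the changed subcluster shares in the difference was not tested.

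**Figure D3:**
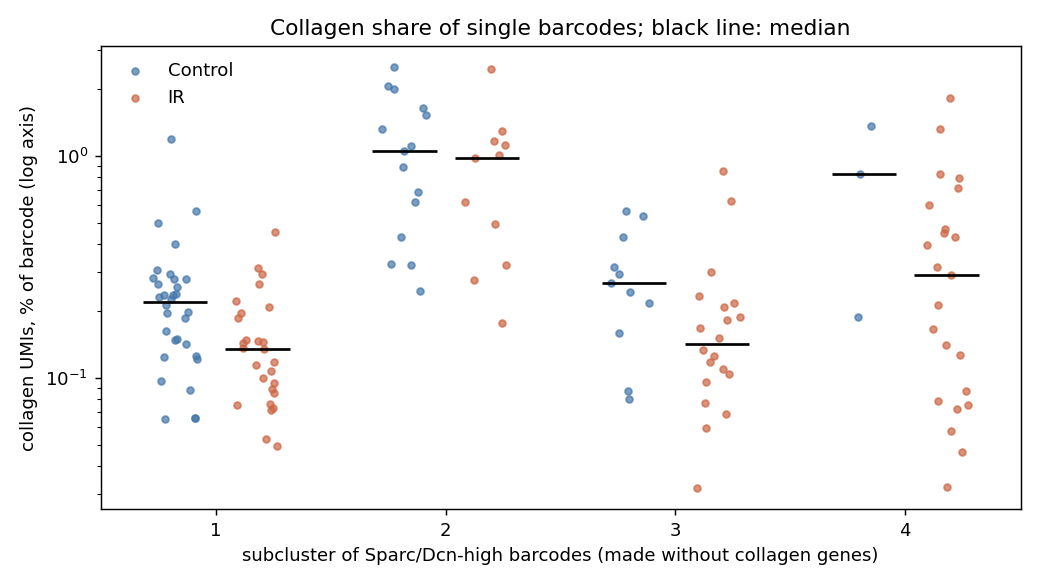
Collagen UMIs as a percent of each Sparc/Dcn-high barcode's UMIs, on a log axis, by subcluster and library, 1 point per barcode with the median as a line. Subcluster 2 has the highest medians, 1.05% in Control and 0.979% in IR, and subcluster 4 holds only 3 Control barcodes.

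Single members followed different courses within the subclusters. In subcluster 2 Col3a1 stood at 6664 CPM in Control and 5519 in IR, a log2 ratio of -0.27 (-0.37 to -0.17), while Col1a2 stood at 457 and 535 (0.23, -0.12 to 0.57) and Col5a1 at 263 and 307 (0.22, -0.24 to 0.68). In the cycling subcluster 3 Col3a1 stood at 873 and 482 CPM (-0.86, -1.05 to -0.66), Col6a2 at 345 and 146 (-1.24, -1.56 to -0.91) and Col5a1 at 105 and 49.1 (-1.10, -1.69 to -0.51). Col5a1 and Col6a2 were therefore lower in IR by more than 2-fold there and not in subcluster 2. Their intervals in the 2 subclusters did not overlap. Col3a1 and Col6a3 were the 2 members whose interval lay below 0 in each of the 4 subclusters. The share of all genes with this pattern was not computed. In subcluster 4 the Control value of Col6a3 rests on 32 UMIs in 3 barcodes. Of the 43 Control UMIs of Col1a1, 30 lay in subcluster 1, and of the 80 IR UMIs 48 lay in subcluster 4. Of these 30 and 48, 24 and 45 came from 3 barcodes each.

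**Figure D4:**
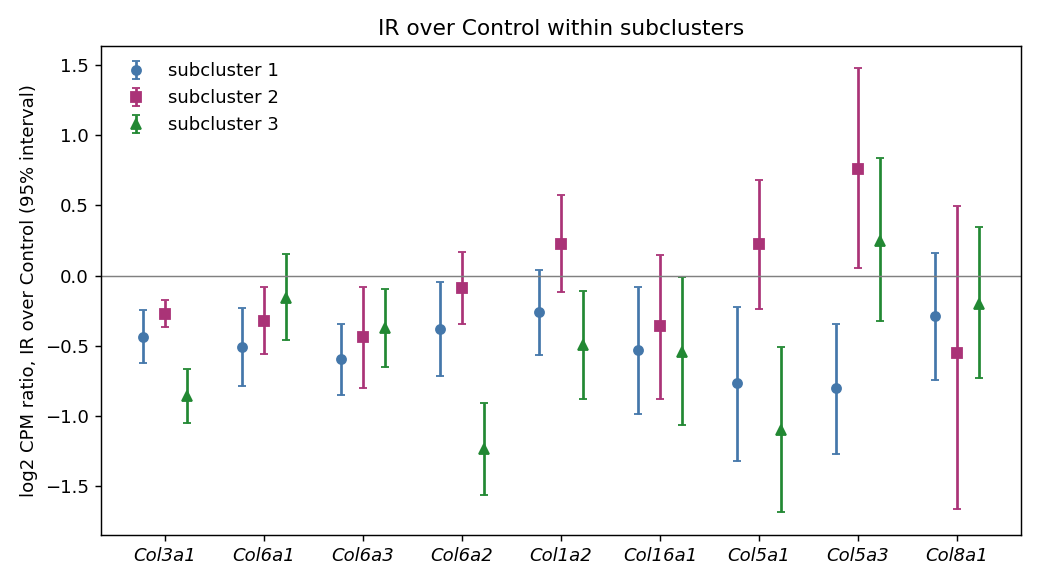
Log2 CPM ratio of IR over Control within subclusters 1 to 3 for the 9 members with most UMIs, with exact conditional 95% intervals. The intervals of Col3a1 and Col6a3 lie below 0 in all 3, and the points of Col6a1, Col6a2, Col16a1 and Col8a1 do too. In subcluster 2 the points of Col1a2, Col5a1 and Col5a3 lie above 0, but only the interval of Col5a3 does.

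The lists of genes that make, process, bind or sense collagen had median log2 ratios from -0.57 to 0.10. Of 23 collagen synthesis genes with at least 20 UMIs, 0 were past 2-fold in either direction, and the median log2 ratio was -0.05. Its leaders were Hsp90b1, an endoplasmic reticulum chaperone, at 717 CPM in Control and 725 in IR, Serpinh1, the collagen chaperone, at 627 and 648, and Ppib, a proline isomerase, at 541 and 592. The sum of the list was 3645 CPM in Control and 3704 in IR. Of 9 processing and cross-linking genes none was past 2-fold and the median was 0.10. Pcolce, which promotes removal of the C-terminal propeptide by Bmp1, stood at 501 and 582 CPM (log2 ratio 0.22, 0.10 to 0.33), Bmp1 at 77.4 and 78.4, and Tgm2, a transglutaminase, at 48.0 and 47.8. Lox had 0 UMIs in both libraries, while its relatives were present: Loxl2 at 73 and 135 UMIs, Loxl1 at 66 and 132, Loxl3 at 18 and 43 and Loxl4 at 7 and 11.

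Fibril partners had a median of -0.12 over 9 genes, with 1 past 2-fold higher and 0 lower. Bgn, a small proteoglycan, stood at 1197 CPM in Control and 1281 in IR (log2 ratio 0.10, 0.02 to 0.17). Fn1, fibronectin, stood at 251 and 135 (-0.89, -1.08 to -0.70), and Fbn1, fibrillin, at 243 and 198 (-0.30, -0.47 to -0.12). The gene past 2-fold was Tnc, tenascin C, with 2 UMIs in Control and 22 in IR. The 7 basement membrane partners had a median of -0.56 and none past 2-fold: Hspg2, perlecan, stood at 216 and 141 CPM (-0.62, -0.81 to -0.42) and Lamc1, a laminin chain, at 105 and 71.2 (-0.56, -0.84 to -0.27). Bgn thus lay apart from Fn1, Hspg2 and Lamc1.

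Among 5 collagen receptors, with a median of -0.57, Adgrg1 was past 2-fold lower on 14 and 11 UMIs. Ddr2, a receptor tyrosine kinase for fibrillar collagen, stood at 106 CPM in Control and 71.8 in IR (log2 ratio -0.57, -0.84 to -0.29), Mrc2, an endocytic collagen receptor, at 50.1 and 30.6 (-0.71, -1.13 to -0.29) and Itgb1 at 296 and 262 (-0.18, -0.33 to -0.02). Of 9 breakdown genes none was past 2-fold and the median was -0.00. Ctsl, a lysosomal protease, stood at 1246 and 1419 CPM, Timp2, a metalloproteinase inhibitor, at 933 and 836, and Mmp2, a gelatinase, at 460 and 418. The 17 TGF-beta genes had a median of -0.20 and none past 2-fold. Ltbp4, which binds latent TGF-beta, stood at 281 and 163 CPM (-0.79, -0.96 to -0.61), Tgfbi at 245 and 253, and Smad7, an inhibitor of the pathway, at 89.9 and 105.

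Other programs gave the context of these levels. Of 15 interferon-induced genes 14 were past 2-fold higher in IR, with a median log2 ratio of 2.19. The 12 cycling genes had a median of 0.07 with none past 2-fold, and the 14 p53 targets had one of 0.41 with 1 past 2-fold, Sesn1, on 4 UMIs in Control and 18 in IR (interval -0.29 to 3.33). Of these 14, 4 had an interval above 0 and 1 had one below 0, against 9.94% and 11.9% of all genes. Plk2, a kinase, had a log2 ratio of 0.94 (0.68 to 1.20) and Gdf15, a stress cytokine, one of 0.88 (0.47 to 1.30). Phlda3, the p53 target with most UMIs, was lower in IR, at -0.32 (-0.51 to -0.13). The part of the interferon program in the collagen difference was not tested.

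Collagen RNA was concentrated in the Sparc/Dcn-high barcodes, as compared with all other barcodes of at least 1000 UMIs. Its level was 43.4 times that of the others in Control, 3943 against 90.9 CPM, and 72.4 times in IR, 2795 against 38.6 CPM. Of members with at least 20 UMIs over both populations, 15 of 20 were at least 10-fold higher in Control and 14 of 18 in IR, against 5.47% and 6.62% of all genes. At least 2-fold higher were 17 and 16, against 25.9% and 29.8% of all genes. At least 2-fold lower were 2 members in Control, Col14a1 and Col15a1, and 0 in IR, against 24.1% and 23.3% of all genes. The Sparc/Dcn-high barcodes held 66.4% of collagen UMIs in Control (exact binomial interval 65.5% to 67.3%) and 87.4% in IR (86.8% to 88.0%).

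Much of the rest lay in barcodes with at least 10 UMIs of Sparc and Dcn that missed the rule through low depth or Ptprc. There were 27 of these in Control and 10 in IR, with 25.2% and 4.84% of the collagen UMIs. In Control they stood at 9251 CPM, above the selected barcodes, and in IR at 2218 CPM. Just under the threshold on Sparc and Dcn, with 5 to 9 UMIs, lay no Control barcode and 4 IR barcodes at 1603 CPM of collagen. Just inside it, with at least 10 and under 15 UMIs, lay 1 barcode in each, at 868 CPM in Control and 1000 CPM in IR.

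Col1a1 had the widest gap between the libraries in where its UMIs lay, among the 16 members. In Control 20.4% of its UMIs lay in Sparc/Dcn-high barcodes and in IR 75.5%. Of the 168 Control UMIs elsewhere, 148 came from 3 barcodes outside the rule, with 99, 31 and 18 UMIs. The same 3 barcodes held 18, 6 and 3 UMIs of Lum, which was at 0 in all 61 selected ones, and 24, 7 and 5 of Col14a1. Without them Col1a1 stood at 0.496 CPM in the other Control barcodes, and the level of the Sparc/Dcn-high barcodes was 47.2 times that instead of 5.62 times. No selected Control barcode held more than 15 Col1a1 UMIs, so the Control barcodes richest in it were not ones that the rule took.

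In the barcodes with under 10 UMIs of Sparc and Dcn, collagens as a whole stood at 22.8 CPM in Control and 23.9 in IR. These levels were uneven. The 223 Control and 150 IR barcodes without a leading lineage stood at 232 and 495 CPM, with 146 of 914 and 310 of 826 collagen UMIs. Barcodes led by monocyte or macrophage markers stood at 21.9 and 16.1 CPM. Empty droplets, with 1 to 100 UMIs, held 103 and 133 CPM. Free RNA keeps the ratios between the collagens of its source, so each member was set against the empty droplets after scaling to Col1a1, Col1a2 and Col3a1. The lower bound of observed over expected UMIs was at least 2 for 6 of 26 members in Control and 7 of 26 in IR, against 73.4% and 71.5% of all genes scaled in the same way. Col6a1, Col6a2 and Col6a3 were not among them.

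Col27a1 stood out, with 100 UMIs in Control against 2.53 expected (39.6 times, interval 14.6 to 150) and 65 in IR against 3.75 (17.3 times, 6.83 to 55.9). Barcodes led by dendritic cell markers held 46 and 34 of these UMIs, at 23.1 CPM in Control (16.9 to 30.8) and 14.1 in IR (9.76 to 19.7). Barcodes led by monocyte or macrophage markers stood at 1.13 and 1.18 CPM. A further 20 Control UMIs lay in 7 barcodes without a leading lineage. In the Sparc/Dcn-high barcodes Col27a1 stood at 5.99 and 3.004 CPM, so this fibrillar collagen was higher in the dendritic-led barcodes than there, without overlap of the intervals in either library.

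Col14a1, a fibril-associated collagen, was seen mainly in Control. It held 215 UMIs in 181 Control barcodes against 19.6 expected (10.98 times, 7.14 to 17.2), and 14 in IR against 3.75 (3.73 times, 1.24 to 13.4). Of the Control UMIs, 165 lay in barcodes led by monocyte or macrophage markers at 6.41 CPM (5.47 to 7.47). T cell-led barcodes stood at 4.65 CPM (3.22 to 6.49), NK cell-led ones at 2.64 (1.26 to 4.85) and dendritic-led ones at 1.004 (0.122 to 3.63). In IR the monocyte or macrophage-led barcodes stood at 0.497 CPM. No barcode held more than 4 of these UMIs. Empty droplets also held more Col14a1 in Control, 5.80 against 1.25 CPM, and the part of free RNA in the library difference was not tested.

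The other members above the free-RNA level were sparse. Col4a1 held 60 UMIs in Control (7.30 times the expected) and 99 in IR (9.42 times), spread over lineages, with 1.83 and 3.35 CPM in the monocyte or macrophage-led barcodes. Col4a2 held 11 UMIs in Control and 17 in IR in the same barcodes. Over all barcodes outside the rule, including those with at least 10 UMIs of Sparc and Dcn, Col4a1 held 3.21 UMIs per Col4a2 UMI in Control and 5.40 in IR. In the Sparc/Dcn-high barcodes this ratio was about 1. Col15a1 held 49 UMIs in Control (12.9 times) and 16 in IR (21.3 times), of which 39 and 11 were in monocyte or macrophage-led barcodes. Col11a2 (32 and 18 UMIs) and Col9a3 (16 and 21) were at 11.98 to 16.9 times the expected. Col5a3 (41 UMIs, 4.20 times) and Col18a1 (23 UMIs, 6.13 times) were in this group in IR, though neither was when empty droplets of 1 to 50 UMIs were used (lower bounds of 1.90 for Col5a3 and 1.998 for Col18a1), and 28 of the 41 Col5a3 UMIs lay in barcodes without a leading lineage.

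**Figure D5:**
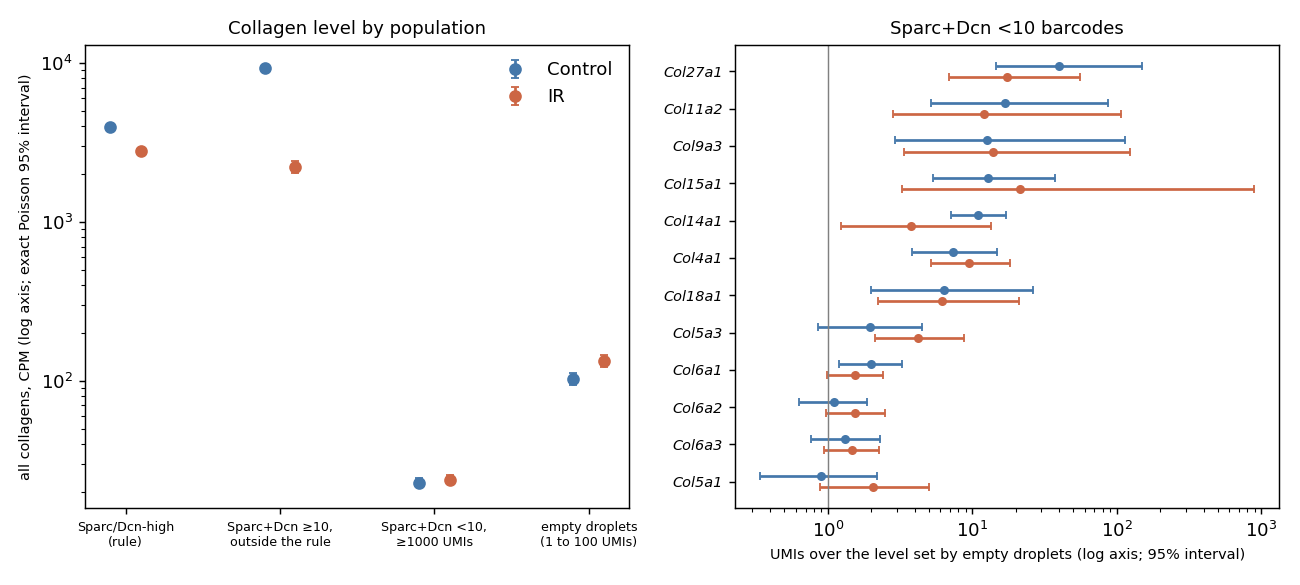
Left, CPM of all collagens (log axis, exact Poisson 95% intervals) in 4 populations of barcodes, where those with under 10 UMIs of Sparc and Dcn lie at 22.8 in Control and 23.9 in IR, below the empty droplets at 103 and 133. Right, UMIs of 12 members in those low barcodes over the level set by empty droplets (log axis, exact conditional 95% intervals), led by Col27a1 at 39.6 times in Control.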

How the data were processed

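The deposited values are unnormalized UMI counts of genes in barcodes, 1 unfiltered matrix for each library, which the authors made from 10x Chromium 3′ libraries against mm10 (Cell Ranger 6.0.1 in the submitters' processing notes, Cell Ranger 4 in the matrix header). Tumors were digested and pooled before the CD45 sort. The members, the rule and all lists were chosen with earlier results of these data known.

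UMIs were summed per library over the Sparc/Dcn-high barcodes and over all others with at least 1000 UMIs, and divided by the total to give CPM. No test was possible with single libraries. Intervals (95%) are exact Poisson for CPM, exact conditional for ratios and Clopper-Pearson for shares (scipy 1.17.1). Genes entered with at least 20 UMIs over both libraries, and the floor for a count of 0 was 3 UMIs. Subclusters came from scanpy 1.11.5 with 1000 variable genes, 10 principal components, 15 neighbours and Leiden resolution 0.5. Barcodes were assigned a leading lineage from marker lists. Barcode correlations used 10000 UMIs drawn per barcode. Every collagen with at least 20 UMIs was named, together with members above the free-RNA level and, in each pathway list, the 3 genes with most UMIs and those past 2-fold, of which 1 gene is not reported here. Doublets were not called. The ratio code was tested on simulated data. Alternatives changed the thresholds of the rule, the scaling (TMM, edgeR 4.0.16), the depth and the barcodes included. Coordinates are those of GENCODE vM21 and RefSeq on GRCm38.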

Additional observations from a re-analysis of the deposited data

Results flagged for a closer look

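Empty droplets (1 to 100 UMIs) served above as a reference for free RNA and lie outside the comparison of the Sparc/Dcn-high barcodes. In them 4 values were higher in IR than in Control with no overlap of the exact Poisson intervals. The share of all genes past the same criterion was not computed, so collagens are not set apart from other genes here. All collagens together stood at 133 CPM in IR (122 to 145) and 103 CPM in Control (94.8 to 112), the opposite order to the Sparc/Dcn-high barcodes. Col6a3 stood at 13.3 CPM in IR and 6.73 in Control, and Col6a1 at 12.8 and 6.73. Col7a1, of anchoring fibrils, stood at 5.01 CPM in IR (20 UMIs) and 0.748 in Control (4 UMIs). Col14a1 had the reverse order without overlap, at 1.25 CPM in IR (0.407 to 2.92) and 5.80 in Control (3.94 to 8.23). Over all barcodes under 1000 UMIs, collagens were likewise lower in IR, at 167 CPM against 198. With 1 library per group, library and treatment cannot be told apart.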

How the results depend on the processing

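No paired analysis was possible because each group was 1 library. For the same reason no replicate could be left out. The log2 ratio of all collagens, -0.50 as reported, was negative under every alternative run: it was -0.65 with barcodes of at least 5000 UMIs, -0.55 with Ptprc at 0, -0.57 with at most 5 immune UMIs, -0.67 as a ratio of barcode medians and -0.20 without subcluster 2. The last 2 were chosen after seeing the data, as were leaving out the barcode with most collagen UMIs and the 3 other barcodes with most Col1a1. The 6 other alternatives and leaving out that barcode stayed within the interval. One of these 6, a limit of 25% mitochondrial UMIs, removed no Sparc/Dcn-high barcode, so its values could not differ from those reported. Of 176 recomputed ratios of the 16 members, 163 stayed within their interval and 13 lay outside it. The 163 include the 16 ratios under that mitochondrial limit. In 17 cases over 6 members the sign changed, in each for a member whose reported interval included 0. In 2 of these the new interval was clear of 0: Col5a3 at 0.52 with at most 5 immune UMIs and Col1a1 at -0.70 with at least 5000 UMIs. The Col1a1 change rests on a single admitted Control barcode with 31 Col1a1 UMIs. Members past 2-fold lower, 0 as reported, numbered 1 with Sparc and Dcn at 5 or more UMIs and with mitochondrial and collagen UMIs left out of the total (Col27a1 in both), and 1 with at least 1 UMI in each library (Col9a3). None was 2-fold higher under any.

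The fold over other barcodes, 43.4 in Control and 72.4 in IR, became 69.2 in Control with at least 5000 UMIs, 35.1 and 36.8 with Ptprc at 0, 40.7 and 68.3 with others of at least 500 UMIs, 59.8 and 88.5 without the 3 others with most Col1a1, and 78.5 in IR with Sparc and Dcn at 5 or more. The share of collagen UMIs in Sparc/Dcn-high barcodes, 66.4% and 87.4%, became 76.5% in Control with at least 5000 UMIs, 59.9% and 76.8% with Ptprc at 0, 64.7% and 86.7% with others of at least 500 UMIs, 73.2% and 89.5% without the 3 others, and 86.5% and 88.5% in IR with Sparc and Dcn at 20 or at 5 or more. Members above the free-RNA level, 6 in Control and 7 in IR, numbered 14 and 17 when the Sparc/Dcn-high barcodes were taken as the source, and 6 and 5 with empty droplets of 1 to 50 UMIs. The causes were not tested. Members under 20 UMIs were not compared between the libraries as reported.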
